A study of Homo sapiens with 18 samples.

Results

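The genes described here make, carry, sense and break down retinoic acid, the hormone-like acid that cells form from vitamin A. They are CYP26A1, CYP26B1, ALDH1A1, CRABP2, RARA, RARB, RARG and DHRS3, taken by name. Every probe set annotated with exactly 1 of these gene symbols was used, which gave 16 of the 20374 such probe sets and 8 of the 12750 genes on the array.

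The cells were TC32 and TC71, established human cell lines of Ewing sarcoma, a tumour of bone and soft tissue driven by EWS-ETS fusion proteins. YK-4-279 is a small molecule developed to block the partner binding of the fusion protein EWS-FLI1. The 6 groups, of 3 Affymetrix arrays each, were TC32 resistant, TC32 72 h, TC32 parental, TC71 resistant, TC71 72 h and TC71 parental. Resistant cells were clones C1, C4 and CP of TC32 and clones C3, C4A and C5 of TC71, which had been kept in rising YK-4-279 up to 3 μM over 7 months. The 72 h groups were parental cells given YK-4-279 at 3 μM for up to 72 h, and the parental groups were untreated. Each resistant array is 1 clone, so the spread of a resistant group is a spread between clones. The labels mark the clones as treated but give no dose at harvest, and no cells kept untreated for those months were measured, so selection, time in culture and exposure cannot be told apart. For the parental and 72 h arrays the labels do not state separate cultures, so the spread within those groups may be technical. In the main model all 6 groups shared 1 spread per gene. A p-value for 72 h against parental cells therefore also takes in the spread between clones.

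Values are log2 relative to each probe set's own median over the 18 arrays. They hold no absolute level, so no gene can be ranked above another. A probe set that stays at its median cannot be told apart between RNA below detection and RNA at a constant level. In such bulk RNA a lower value can also stand for fewer cells of a type or for less RNA per cell, which cannot be told apart.

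Retinal dehydrogenases such as ALDH1A1 turn retinal into retinoic acid, while DHRS3 takes retinal back to retinol. CRABP2 carries the acid to the nuclear receptors RARA, RARB and RARG, which pair with RXR receptors on DNA elements made of a pair of spaced half-sites. The cytochromes CYP26A1 and CYP26B1 oxidise and so clear retinoic acid. CYP26A1 and RARB are also textbook targets of the receptors, so retinoic acid signalling raises its own receptor and its own clearance.

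The promoters of these feedback genes are shown first, because a receptor element in them is the best known link between the acid and its own metabolism. The sequences are from RefSeq (GRCh38.p14), each on its gene's strand, 5′ to 3′. Capitals mark the half-sites of the searched motif, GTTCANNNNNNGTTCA, looked for on both strands. Positions count from the transcription start, the base before it being -1. The CYP26A1 stretch lies at chr10:93073778-93073842 on the plus strand, from -115 to -51, and holds the motif on the opposite strand at -90 to -75. The RARB stretch lies at chr3:25428186-25428250 on the plus strand, from -77 to -13, and holds it at -52 to -37. The CYP26B1 stretch lies at chr2:72147863-72147962 on the minus strand, from -100 to -1, and is given in lower case because no match was found in its window.
CYP26A1: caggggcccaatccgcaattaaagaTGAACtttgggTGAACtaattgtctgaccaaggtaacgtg
RARB: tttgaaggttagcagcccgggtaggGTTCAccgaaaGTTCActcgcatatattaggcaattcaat
CYP26B1: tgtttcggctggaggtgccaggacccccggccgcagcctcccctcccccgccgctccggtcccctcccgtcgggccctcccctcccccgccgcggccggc
Windows of 250 bases before to 50 after a start were searched. All 8 genes had at least 1 window, 16 in all, and 2 windows held the motif, 1 of CYP26A1 and 1 of RARB. Of all 35116 windows in the same table, 20 held it (0.057%). CYP26A1 and RARB were already known targets, so their matches are a description and not a test. Only this exact spelling and spacing was searched, so a window without a match may hold another form of the element. A match describes these letters only and shows no receptor on them.

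Before the members' values, some arrays need naming. Over the 3334 probe sets used for distances, TC32 parental replicate 1 lay closest to TC71 parental replicate 1 (root mean square difference 0.71 log2) and not to another TC32 parental array. The smallest distance, 0.28, was between replicates 1 and 3 of TC71 72 h. The CYP26B1 and RARA differences of TC32 clones from parental cells are therefore also given without replicate 1. Of 10 Ewing sarcoma markers 9 were measured, and all but NPY varied.

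Of the 16 probe sets, 11 were flat, with a standard deviation (SD) over the 18 arrays under 0.05. Of all probe sets on the array, 35.0% were flat. Flat probe sets made up all that was measured of 4 genes: CYP26A1, CRABP2, RARB and DHRS3. Among all genes, 29.4% had only flat probe sets. CYP26A1 (206424_at), CRABP2 (202575_at), DHRS3 (202481_at) and the 4 RARB probe sets (205080_at, 208412_s_at, 208530_s_at and 217020_at) stayed between -0.02 and 0.04 in both lines and in every condition. CYP26A1 and RARB, the genes with the motif in a window above, are both among these flat genes. The array's annotation puts CYP26A1 at bases 94833666 to 94837252 of chromosome 10 (plus strand), CRABP2 at 156669409 to 156675375 and DHRS3 at 12627939 to 12677406 of chromosome 1 (both minus strand). It puts RARB probe set 205080_at at 25469901 to 25639420 of chromosome 3 (plus strand). The build of these annotation coordinates is not given in the sources used here.

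**Figure D1:**
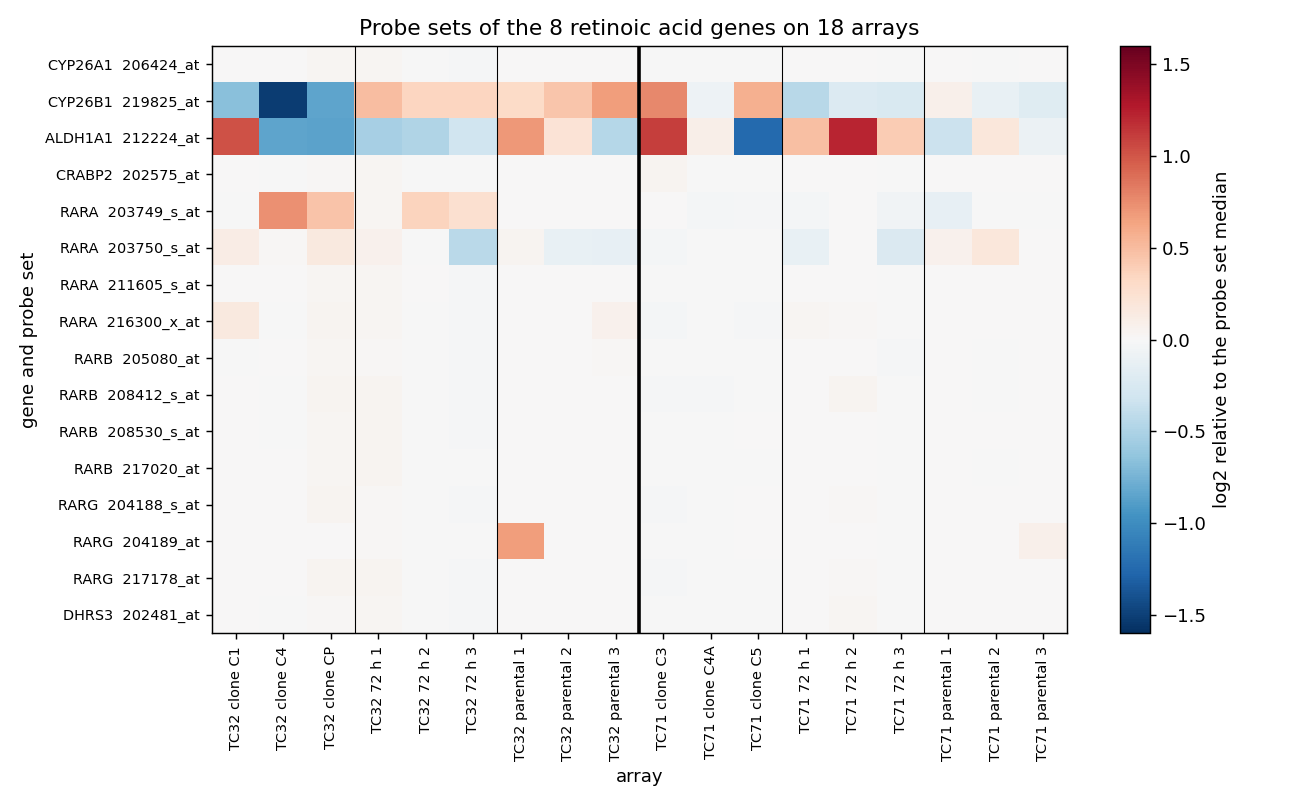
Heat map of the 16 probe sets (rows) on the 18 arrays (columns, grouped by line and condition); colour is log2 relative to the probe set's median, red above and blue below it. The 11 flat rows are nearly white throughout, and CYP26B1 is blue in the 3 TC32 clones and red in TC32 72 h and TC32 parental cells.

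The degrading enzyme CYP26B1 was the 1 member that fell past the threshold, in the TC32 clones. It was measured by 1 probe set (219825_at), which the annotation aligns once, to the minus strand of chromosome 2 at bases 72356454 to 72374963 (band p13.2). In TC32 its values were -0.67, -1.52 and -0.84 in resistant clones C1, C4 and CP, 0.49, 0.34 and 0.34 at 72 h, and 0.30, 0.44 and 0.67 in parental cells. Every TC32 clone lay below all 6 other TC32 arrays, while the 72 h and parental arrays overlapped. In TC71 its values were 0.77, -0.08 and 0.57 in clones C3, C4A and C5, -0.45, -0.22 and -0.24 at 72 h, and 0.08, -0.12 and -0.19 in parental cells. Clones C3 and C5 lay above the parental range and C4A within it, and all 3 clones lay above the 72 h arrays.

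CYP26B1 fell in resistant TC32 cells, to a mean of -1.01 ± 0.45, against 0.47 ± 0.19 in TC32 parental cells (SD, n = 3 each). The difference was -1.48 on the log2 scale (standard error, SE, 0.22; 95% interval -1.96 to -1.0; limma adjusted p = 0.00354), a 2.80-fold lower level. Among all genes, 6.31% passed the same threshold in this comparison, an adjusted p under 0.05 (3.19% up and 3.12% down), and 10.1% had all 3 resistant arrays below all 3 parental ones. Without TC32 parental replicate 1 the difference was -1.57 (limma adjusted p = 0.00322). By clone, the value minus the parental mean was -1.15 in C1, -1.99 in C4 and -1.31 in CP. When the model was fitted to the resistant and parental TC32 arrays alone, the adjusted p was 0.1.

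CYP26B1 in resistant TC32 cells also fell below its level in TC32 cells treated for 72 h, with a difference of -1.40 (SE 0.22; limma adjusted p = 0.00156), or 2.64-fold lower. In that comparison 14.8% of all genes passed, 7.4% downward, and 14.3% had all clones below all 72 h arrays. No difference between 72 h and parental TC32 cells was detected. The 72 h mean was 0.39 ± 0.08, against 0.47 ± 0.19 in parental cells (SD, n = 3 each), a difference of -0.08 with a 95% interval of -0.56 to 0.40 (limma adjusted p = 1.0, where 2.2% of all genes passed).

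In TC71 the clones were higher, at a mean of 0.42 ± 0.44, against -0.08 ± 0.14 in parental cells (SD, n = 3 each), but this did not pass the threshold. The difference was 0.50 (SE 0.22; 95% interval 0.02 to 0.98; limma adjusted p = 0.427), where 1.09% of all genes passed. Against TC71 cells at 72 h, with a mean of -0.30 ± 0.13, the clones differed by 0.72 (SE 0.22; limma adjusted p = 0.12, where 2.5% of genes passed and 6.53% had all clones above all 72 h arrays). All 3 TC71 72 h arrays lay below the parental ones, as for 12% of all genes. Their difference was -0.23 (limma adjusted p = 0.947, where 0.149% of genes passed). Of the 6 fits that left out 1 array, the difference of the clones from 72 h cells passed in 1. That fit left out clone C4A (0.97; limma adjusted p = 0.022). Across the 6 the difference ran from 0.55 to 0.97, with limma adjusted p-values up to 0.311.

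The change in resistant cells differed between the lines. The TC32 change minus the TC71 change was -1.98 (SE 0.31; 95% interval -2.66 to -1.30; limma adjusted p = 0.0269), a contrast that 0.235% of all genes passed, 0.133% in this direction. Without TC32 parental replicate 1 it was -2.07 (limma adjusted p = 0.0106), but it missed the threshold without TC32 parental replicate 2 or 3 or without any 1 of the TC71 parental arrays, the highest adjusted p being 0.0863. The 72 h change did not differ detectably between the lines, at 0.15 (95% interval -0.53 to 0.83; limma adjusted p = 1.0, where 0.376% of genes passed). Untreated TC32 cells had values above all untreated TC71 arrays, as did 24.9% of all genes, by 0.55 (SE 0.22). That difference missed the threshold (limma adjusted p = 0.511, where 0.0471% of genes passed). These contrasts share parental arrays and are not independent of each other.

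Ordered by group mean, CYP26B1 stood at 0.47 in TC32 parental, 0.42 in TC71 resistant, 0.39 in TC32 72 h, -0.08 in TC71 parental, -0.30 in TC71 72 h and -1.01 in TC32 resistant cells. The first 3 groups overlapped with each other. From the third to the fourth, the fourth to the fifth and the fifth to the last, neighbouring groups did not overlap.

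**Figure D2:**
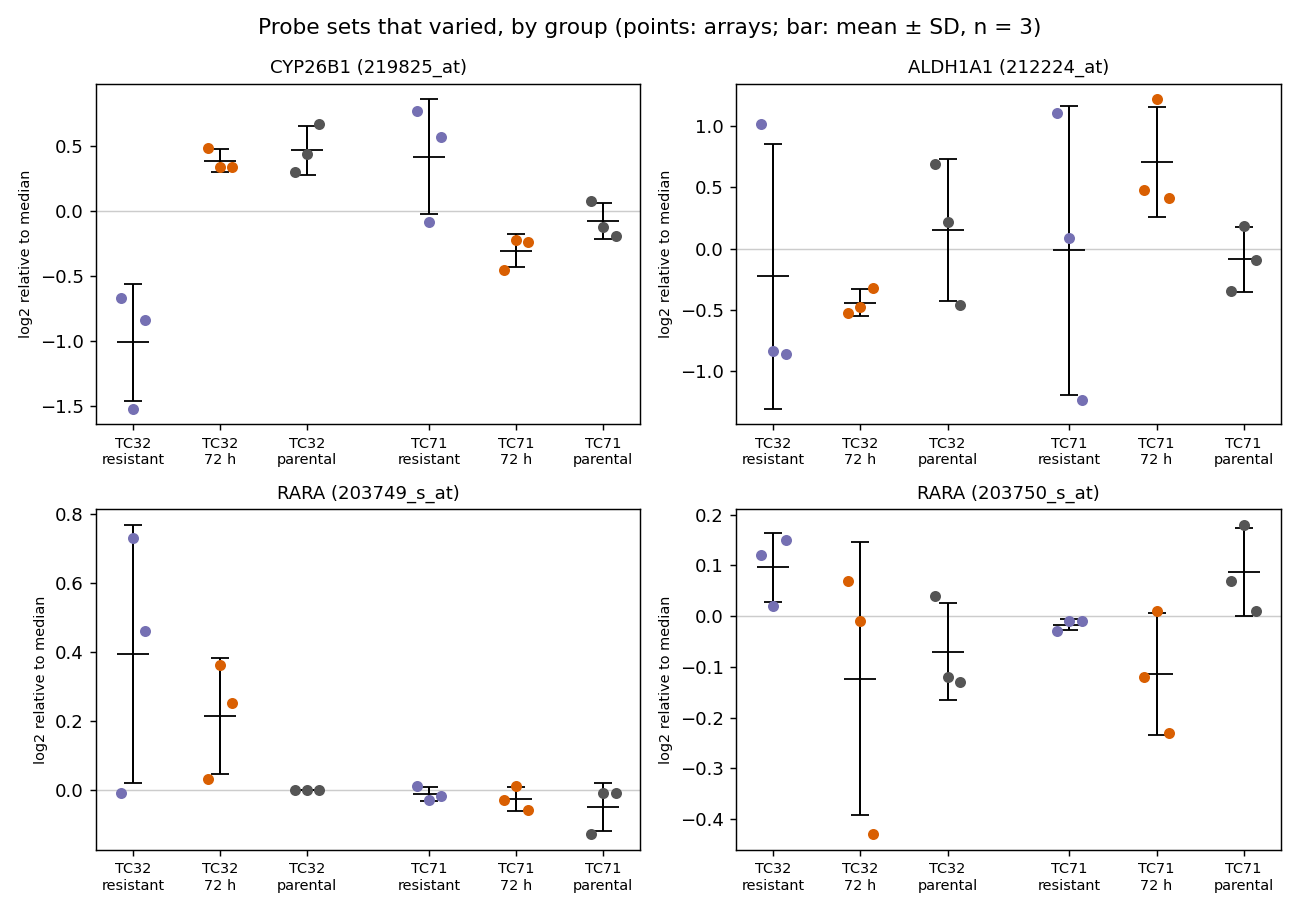
Log2 value relative to the probe set's median for 4 probe sets that varied, by group; points are arrays and bars the mean ± SD (n = 3), with TC32 in the left and TC71 in the right set of each panel. CYP26B1 is lowest in the 3 TC32 clones (-1.52 to -0.67), while the ALDH1A1 clones run from -1.24 to 1.11.

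**Figure D3:**
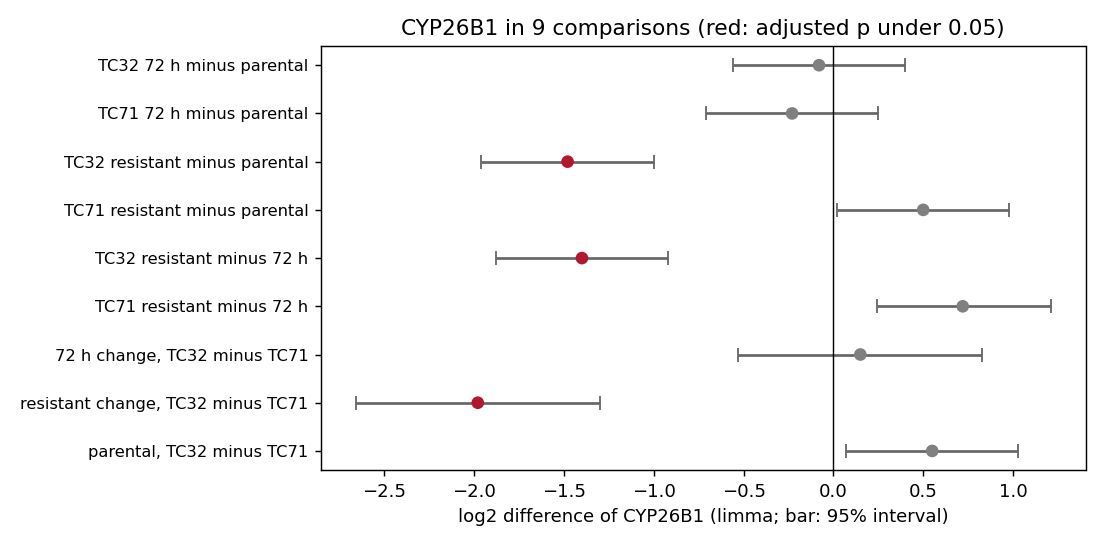
Difference of CYP26B1 in each of 9 comparisons on the log2 scale (horizontal axis), with 95% intervals as bars. Red points passed an adjusted p of 0.05: TC32 resistant minus parental (-1.48), TC32 resistant minus 72 h (-1.40) and the difference of the resistant changes between lines (-1.98).

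In resistant over parental TC32 cells, the 31 genes within 2 Mb of CYP26B1 had a median change of 0.24, and the 2 that passed had both risen. The 300 genes on the short arm of chromosome 2 had a median of 0.15, with 4 of the 37 that passed having fallen, and the median of all genes was 0.00. Among all genes 6.31% passed in this comparison, 3.12% downward. The 2 of 31 is near that share, and the 37 of 300 is above it. Neighbours were set by the array's annotation.

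The 3 genes whose values tracked CYP26B1 most closely over the 18 arrays were NELL2 and PLAG1 (Pearson r 0.90 each) and COL21A1 (0.87), among 1794 genes with an SD of at least 0.5. NELL2 averaged -1.24, PLAG1 -1.06 and COL21A1 -1.93 in resistant TC32 cells, against 0.42, 0.33 and 0.29 in parental TC32 cells. The arrays share 6 groups, so these correlations describe mainly the low TC32 clones.

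Among markers of other cells, 20 of 21 were measured and 11 of these were flat, including CD3E and CD14 of blood cells, CDH1 of epithelium and PECAM1 of endothelium. Others varied widely, among them LUM and DCN of fibroblasts (SD over the 18 arrays 1.77 and 1.29). In resistant over parental TC32 cells 1 of the 20 changed, where 6.31% of all genes passed. It was the keratin gene KRT18, by -3.86 (limma adjusted p = 0.00515). In TC32 clones against 72 h cells 2 of the 20 passed, where 14.8% of all genes did, KRT18 by -3.31 (limma adjusted p = 0.00526) and LUM by 3.67 (limma adjusted p = 0.0229). The mean of the 20 ran from -0.30 to 0.18 in the TC32 clones, from -0.22 to -0.16 at 72 h and from -0.43 to 0.09 in TC32 parental arrays. PTPRC, the leukocyte gene for CD45, stood at 3.31 in C1, -0.02 in C4 and 4.44 in CP of TC32, and at 5.13 in C3, 0.13 in C4A and -0.02 in C5 of TC71. So it was high both in clones with low CYP26B1 (C1 and CP) and in C3, which had the highest. The epithelial EPCAM reached 2.88 in CP and 3.41 in C3. It was also high outside the clones, at 2.28 in TC71 parental replicate 2 and 2.09, 0.69 and 1.31 at 72 h in TC71. COL3A1, a collagen gene, was at -2.14 in C4 and -1.63 in CP of TC32 and at -2.0 in C4A of TC71. The fibroblast marker THY1 read 3.54 in C5 of TC71 and between -0.03 and 0.02 on the other arrays. The part of these markers in the CYP26B1 result was not tested.

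On the synthesis side, ALDH1A1 ranged widely between clones of the same line. It was measured by 212224_at, placed on the minus strand of chromosome 9 at 75515586 to 75567971. Its values in TC32 were 1.02, -0.84 and -0.86 in clones C1, C4 and CP, -0.53, -0.48 and -0.32 at 72 h, and 0.69, 0.22 and -0.46 in parental cells. In TC71 they were 1.11, 0.09 and -1.24 in clones C3, C4A and C5, 0.48, 1.22 and 0.41 at 72 h, and -0.35, 0.18 and -0.09 in parental cells. Each line thus had 1 clone above and at least 1 clone below its whole parental range.

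No difference in the group means of ALDH1A1 passed. In resistant cells the difference from parental was -0.37 in TC32 (limma adjusted p = 1.0) and 0.08 in TC71 (limma adjusted p = 0.951). At 72 h it was -0.59 in TC32 (SE 0.57; limma adjusted p = 0.886) and 0.79 in TC71 (95% interval -0.45 to 2.03; limma adjusted p = 0.777). The 3 TC71 72 h arrays lay above all TC71 parental arrays, as for 13.3% of all genes. The difference of the 72 h changes between lines, -1.38, had a 95% interval of -3.14 to 0.37 (limma adjusted p = 0.80). In the order of the group means every neighbouring pair overlapped. CAP2 (Pearson r 0.77) and RBPMS (0.68) were among the genes closest to ALDH1A1 over the 18 arrays.

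RARA, the receptor subtype found in most tissues, was the 1 of the 3 retinoic acid receptor genes with a change past the threshold, and that change was small. Its 4 probe sets lie on the plus strand of chromosome 17, the longest alignment running from 38465445 to 38513895. As the mean of these probe sets, RARA rose in resistant TC32 cells, to 0.14 ± 0.06, against -0.01 ± 0.02 in parental cells (SD, n = 3 each). The difference was 0.15 on the log2 scale (SE 0.04; 95% interval 0.07 to 0.23; limma adjusted p = 0.0348), which is 1.11-fold. RARA and CYP26B1 were the 2 of the 8 genes that passed in this comparison, where 6.31% of all genes did.

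The rise came mainly from 2 probe sets that behaved differently from each other. For 203749_s_at the values were -0.01, 0.73 and 0.46 in TC32 clones C1, C4 and CP, 0.03, 0.36 and 0.25 at 72 h, and 0.00 in each parental array. The TC71 arrays lay between -0.13 and 0.01. So C4 and CP were high and C1 was at the parental value. For 203750_s_at the values were 0.12, 0.02 and 0.15 in C1, C4 and CP, 0.07, -0.01 and -0.43 at 72 h, and 0.04, -0.12 and -0.13 in TC32 parental cells. Here C1 and CP lay above the parental range and C4 within it. On their own neither probe set passed, at 0.39 (limma adjusted p = 0.116) and 0.17 (limma adjusted p = 0.475). The other probe sets, 211605_s_at and 216300_x_at, were flat, the highest value of any flat probe set being 0.15 for 216300_x_at in clone C1. That value was 0.13 above its parental mean, beside 0.19 for 203750_s_at in the same clone, so 216300_x_at also added to the rise of C1.

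The RARA call did not hold in most alternatives. It passed in 3 of 11 other settings, single probe sets included, and in 2 of the 6 fits that each left out 1 of the TC32 arrays compared, with adjusted p-values up to 1.0 and 0.128. Without TC32 parental replicate 1 it was 0.16 (limma adjusted p = 0.0384). The difference of its resistant change between lines was 0.17 (SE 0.05; limma adjusted p = 0.203).

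RARG, the receptor subtype most tied to skin, had 2 flat probe sets (204188_s_at and 217178_at) and 1 that moved on a single array. Probe set 204189_at, on the minus strand of chromosome 12 at 53604399 to 53621472, read 0.67 in TC32 parental replicate 1 and 0.08 in TC71 parental replicate 3. On the other 16 arrays it lay between -0.01 and 0.02. RARG passed in 0 of the 9 comparisons in limma, with 0.0964 as its lowest unadjusted p, and the array with the high value was the parental one that lay nearest to TC71.

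Counted over all 9 comparisons, the 8 genes gave 2 calls in TC32 resistant minus parental (1 up, 1 down), 1 in TC32 resistant minus 72 h (down) and 1 in the difference of the resistant changes between lines. The other 6 comparisons gave 0 calls among the 8, the lowest adjusted p in limma being 0.12. At an unadjusted p under 0.05, these 6 comparisons gave 0 or 1 of the 8 genes each. Among all genes that looser threshold took 14.8% in TC32 and 10.6% in TC71 at 72 h against parental cells, and 8.0% in the difference of these changes. It took 11.2% in TC71 clones against parental cells, 14.6% in TC71 clones against 72 h cells and 7.69% between the untreated lines.

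Other genes of the pathway came from 6 lists with 128 entries, of which 115 were measured and 48 of these had only flat probe sets. In resistant over parental cells 2 rose and 5 fell in TC32, where 6.31% of all genes passed. In TC71 1 rose and 2 fell, where 1.09% of all genes passed. At 72 h 3 rose and 0 fell in TC32, where 2.2% of all genes passed. In TC71 at 72 h 0 of the 115 passed in limma, where 0.149% of all genes did. There 6 had an unadjusted p under 0.05, as had 10.6% of all genes. When the compared groups were fitted alone 1 passed, as did 290 of all 12750 genes. The median change of the 115 was within 0.01 of that of all genes in each of these comparisons. Genes with only flat probe sets, 48 of the 115 and 29.4% of all genes, hold both medians near 0. Their closeness therefore says little about the genes that varied. In clones against 72 h cells 3 of the 115 rose and 6 fell in TC32, where 14.8% of all genes passed. In TC71 3 rose and 1 fell, where 2.5% of all genes passed. The TC32 clone count of 7 depended on single arrays, as did the count of 805 over all 12750 genes. The list count was 8 without TC32 parental replicate 1, 2 without replicate 2 or replicate 3, 13 without clone C1, 2 without C4 and 3 without CP. Over all genes these fits gave, in the same order, 1214, 277, 243, 961, 431 and 590. The TC71 clone count of 3 became 1 without TC71 parental replicate 1 or 3, 2 without replicate 2, 4 without C3 or C4A and 5 without C5. Over all genes the count of 139 became 19, 121 and 25 without parental replicates 1, 2 and 3. It became 162, 181 and 408 without C3, C4A and C5. The 72 h count of 3 in TC32 became 1 without 72 h replicate 2 or 3, 6 without replicate 1, and 2 without parental replicate 2 or 3. Over all genes the count of 281 became 673, 94 and 68 without 72 h replicates 1, 2 and 3. It became 90 and 152 without parental replicates 2 and 3.

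Among retinoic acid target genes, 1 of 45 measured rose and 3 fell in resistant over parental TC32 cells, where 3.19% of all genes rose and 3.12% fell. In TC71 0 rose and 2 fell, where 1.09% of all genes passed in either direction. MEIS2, a homeobox gene that retinoic acid raises in mouse and chick limb buds, fell furthest in TC32. Its values were -4.01, -5.03 and -3.97 in clones C1, C4 and CP, -2.01, -3.12 and -3.45 at 72 h, and 0.49, 0.27 and -0.09 in parental cells. The clones differed from parental cells by -4.56 (SE 0.82; limma adjusted p = 0.00689), and the call held whichever of the 6 arrays was left out. The 72 h arrays, also all below the parental ones as for 9.85% of all genes, missed the threshold (-3.08; limma adjusted p = 0.0706), though they passed without 72 h replicate 1 and when only genes with an SD of at least 0.1 were tested. In TC71, MEIS2 stood at -3.85 in C3, -4.03 in C4A and 0.09 in C5, against 1.36, 1.28 and 1.30 in parental cells. That difference of -3.91 passed (limma adjusted p = 0.046), but of the 6 fits that left out 1 array it passed only without clone C5 (-5.25), with adjusted p-values up to 0.164.

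MEIS1, its close relative, fell in TC32 clones to -0.76, -1.02 and -1.63, against -0.24, -0.02 and 0.12 in parental cells. The difference was -1.09 (SE 0.19; limma adjusted p = 0.00627), while in TC71 it was -0.19 (limma adjusted p = 0.815). At 72 h in TC32 MEIS1 was higher than in parental cells by 0.63, which missed the threshold (limma adjusted p = 0.113). TC32 clones differed from these 72 h cells by -1.72 (limma adjusted p = 0.000244), where 14.8% of all genes passed. The difference of the MEIS1 changes between lines, -0.90, did not pass (limma adjusted p = 0.197). ID2, an inhibitor of helix-loop-helix transcription factors, rose in TC32 clones by 1.44 (limma adjusted p = 0.0383), though leaving out 1 array in turn raised the adjusted p to as much as 0.159. In TC71 clones PRKCA, the gene of protein kinase C alpha, read between -0.03 and -0.01, against 1.30, 1.09 and 1.20 in parental cells, a difference of -1.21 (limma adjusted p = 0.025). That call was lost without TC71 parental replicate 1 or 3, with adjusted p-values up to 0.122. The PRKCA value is the mean of 4 probe sets. In 9 other settings the difference ran from -4.81 to -1.20 and passed in 7, so its size depended on the setting. PRKCA also read 1.19 in TC32 parental replicate 1 but -0.01 and 0.00 in replicates 2 and 3, the same array on which RARG was high.

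Of 15 partner and other nuclear receptors, 1 rose and 1 fell in resistant over parental TC32 cells, where 6.31% of all genes passed. In TC71 none did by limma (0 genes, against 1.09% of all genes), and 2 had a p under 0.05 before adjustment. NR2F2, the orphan receptor COUP-TFII, fell in TC32 clones to -0.90, -1.18 and -0.54, against 0.00, 0.18 and 0.34 in parental cells (difference -1.05, SE 0.23; limma adjusted p = 0.0191). Leaving out 1 array in turn gave adjusted p-values up to 0.0944. At 72 h in TC32 NR2F2 was higher than in parental cells by 0.66, which missed the threshold (limma adjusted p = 0.169). TC32 clones differed from these 72 h cells by -1.71 (limma adjusted p = 0.00064), where 14.8% of all genes passed. In TC71 NR2F2 read -1.10 in clone C3, -0.19 in C4A and -0.03 in C5. VDR, the vitamin D receptor, rose in TC32 clones by 0.81 (SE 0.21; limma adjusted p = 0.035), but of the 6 fits that left out 1 array it passed only without clone C1, with adjusted p-values up to 0.125. RXRA, a partner of all 3 retinoic acid receptors, ranged from -1.16 to 0.56 over the 18 arrays and passed in 0 of the 9 comparisons in limma (lowest unadjusted p 0.165). RXRB ranged from -0.11 to 0.18, and RXRG was flat.

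**Figure D4:**
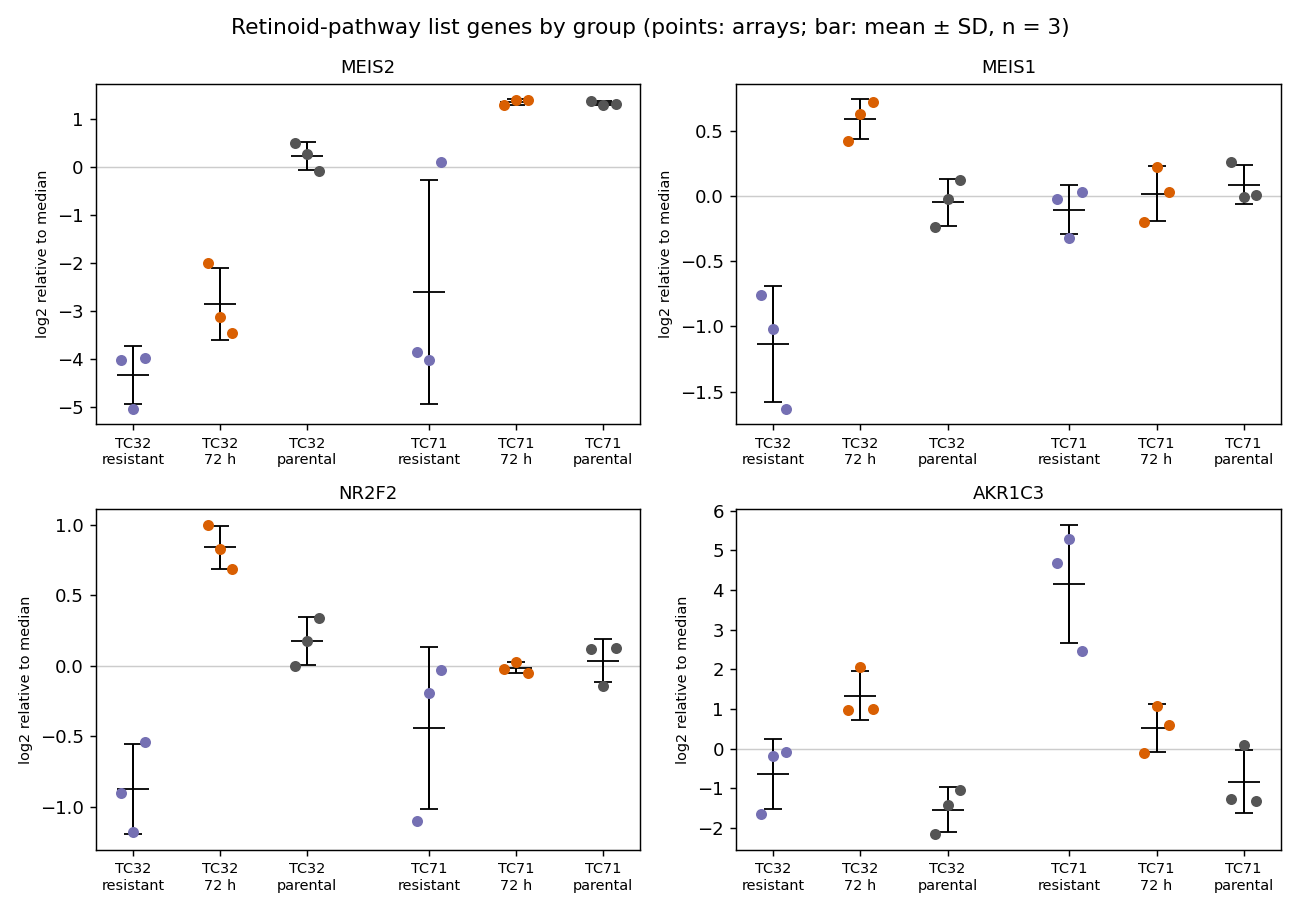
Log2 value relative to the median for 4 other genes of the pathway lists, by group; points are arrays and bars the mean ± SD (n = 3). MEIS2, MEIS1 and NR2F2 are low in the 3 TC32 clones, and AKR1C3 is high in the 3 TC71 clones (2.46 to 5.30). MEIS2 is also low at 72 h in TC32 and in clones C3 and C4A of TC71, and NR2F2 in clone C3.

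The remaining lists hold enzymes, carriers and coregulators. Among 20 measured retinol and retinal dehydrogenases, 10 had only flat probe sets. In TC71 clones over parental cells 1 of the 20 rose, where 1.09% of all genes passed. That gene was AKR1C3, an aldo-keto reductase that can take retinal to retinol. It read 4.69, 5.30 and 2.46 in C3, C4A and C5, -0.12, 1.08 and 0.60 at 72 h, and -1.27, 0.08 and -1.31 in TC71 parental cells. The clones exceeded parental cells by 4.98 (SE 0.70; limma adjusted p = 0.00603), a call that held whichever of the 6 arrays was left out. In TC32 clones AKR1C3 differed from parental cells by 0.89 (limma adjusted p = 0.619), and the difference of the clone changes between lines, -4.09, missed the threshold (limma adjusted p = 0.113). At 72 h in TC32 AKR1C3 was 2.88 above parental cells and just missed the threshold (limma adjusted p = 0.0543). It passed there with a replicate block, with the probe set of largest SD, and among genes with an SD of at least 0.1. DHRS2, another short-chain dehydrogenase, rose at 72 h in TC32 by 6.10 (limma adjusted p = 0.00446) while TC32 clones differed from 72 h cells by -3.72 (limma adjusted p = 0.0148). Its clone values ran from -0.65 in C1 to 4.73 in C4, and that call was lost without TC32 72 h replicate 2 (adjusted p = 0.0625). The 2 other list genes that rose at 72 h in TC32 were MED1, a Mediator subunit that binds nuclear receptors (0.70; limma adjusted p = 0.0497), and the cytochrome gene CYP2C8 (0.57; limma adjusted p = 0.0217). MED1 was lost in 11 of 16 alternatives and CYP2C8 in 5 of 15.

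ALDH1A3, like ALDH1A1 a retinal dehydrogenase, read -0.22, 0.01 and -0.20 in TC71 clones, against 0.84, 1.45 and 0.71 in TC71 parental cells. These groups did not overlap, as for 35.5% of all genes in that direction, flat ones included, and the difference of -1.14 missed the threshold (SE 0.28; limma adjusted p = 0.0793). RDH11 ranged from -0.13 to 0.26, ALDH1A2 was flat, and RDH10 was not analysed here. Of 11 measured genes of retinol uptake, storage and carriage, 0 passed in resistant over parental cells of either line in limma (0 in TC32 and 1 in TC71 at an unadjusted p under 0.05), STRA6 among the 8 that were flat. CRABP1, which like CRABP2 carries retinoic acid, was flat, as was TGM2, a transglutaminase that retinoic acid raises.

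Of 17 measured coregulators, 1 fell in TC32 clones against parental cells, TBL1XR1, a part of the NCOR corepressor complex (-0.72; limma adjusted p = 0.0185), where 6.31% of all genes passed. That call was lost without TC32 parental replicate 2 or 3 or clone C4 or CP, with adjusted p-values up to 0.087. The median change of the 17 in TC32 clones against parental cells was 0.18, against 0.00 over all genes. Of the 17 only 1 had only flat probe sets, against 29.4% of all genes, so these medians are not alike. In clones against 72 h cells 2 of the 17 rose in TC71, where 2.5% of all genes passed. In TC32 1 rose and 1 fell, where 14.8% of all genes passed. NRIP1, a corepressor that retinoic acid receptors bind, was higher in TC71 clones than at 72 h by 1.27 (limma adjusted p = 0.0433, up to 0.135 with 1 array left out). Against TC71 parental cells its difference was 1.29 (limma adjusted p = 0.0627). EP300, an acetyltransferase coactivator, was higher in TC71 clones than at 72 h by 0.92 (limma adjusted p = 0.00621). This call held whichever array was left out but not when the compared groups were fitted alone. The 72 h mean was -0.64, against -0.13 in TC71 parental cells (-0.51; limma adjusted p = 0.182). Against those parental cells the clones differed by 0.40 (limma adjusted p = 0.26). PRAME, a repressor of retinoic acid receptor signalling in melanoma cells, read -4.18, -0.35 and -0.79 in TC32 clones C1, C4 and CP, against -0.94, 0.06 and 0.01 in parental cells. In TC71 clones it read 1.34, 0.82 and -0.01, against -1.51, -0.30 and -1.78 in parental cells. Neither difference passed (-1.48, limma adjusted p = 0.351, and 1.91, limma adjusted p = 0.378).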

How the data were processed

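RNA of 18 samples of TC32 and TC71 cells was measured on Affymetrix Human Genome U133A 2.0 arrays. Per the labels, the authors extracted and normalised the signals with default settings in GeneSpring GX 12.1, and the deposited values are log2 relative to each probe set's median. Both deposited tables held the same values (largest difference 0). No raw intensities were used, the depth behind a value is unknown, and 3 arrays per group limit the precision.

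Of 22277 probe sets, 62 controls, 583 with several genes and 1258 with no gene were left out. Symbols were matched by Entrez ID (20226 of 20374), and a gene is the mean of its probe sets. One model of the 6 group means was fitted over 12750 genes in limma 3.58.1 (R 4.3.3) with empirical Bayes, with p-values adjusted over all genes by Benjamini-Hochberg and a threshold of 0.05. The 9 comparisons set resistant or 72 h against parental cells, resistant against 72 h cells, and TC32 against TC71. The main model did not pair parental and 72 h arrays by replicate number. Deviations of arrays with the same number correlated at 0.23, 0.01 and 0.37 in TC32 and at -0.02, 0.02 and 0.02 in TC71. These values do not settle whether the numbers pair arrays. An alternative without the clones added replicate number as a block. In it 547 genes passed at 72 h in TC32, against 281 in the main model, and 447 in TC71, against 19.

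The members, lists, comparisons and alternatives were chosen with earlier results of these data known. All members were described. Of the lists, up to 6 genes past the threshold per comparison could be named, by size, plus 13 always given. A few genes that these rules name are not reported here. Promoters came from a RefSeq table of GRCh38.p14.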

Additional observations from a re-analysis of the deposited data

Results flagged for a closer look

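The change of CYP26B1 in resistant over parental cells differed between the lines by the test of that difference. TC32 clones differed from TC32 parental cells by -1.48 (limma adjusted p = 0.00354). TC71 clones differed from TC71 parental cells by 0.50, which missed the threshold (limma adjusted p = 0.427). The TC32 change minus the TC71 change was -1.98 on the log2 scale (SE 0.31; limma adjusted p = 0.0269), and it passed in 16 alternatives and missed the threshold in 6. Of the TC71 clones, C3 and C5 lay above the parental range and C4A within it.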

How the results depend on the processing

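CYP26B1 in TC32 clones against parental cells passed whichever array was left out (-1.65 to -1.23) and in 9 of 10 other settings, and against 72 h cells in all 16 alternatives. The count of the 8 genes past the threshold in TC32 resistant minus parental dropped to 1 with repeated quantile normalisation, every probe set on its own, the probe set with the largest SD, no probe sets ending _x_at or _s_at, genes with an SD of at least 0.1, and 4 arrays left out (TC32 parental replicate 1, TC71 72 h replicate 2, and clones C4 and C4A). It was 0 when the compared groups were fitted alone and between 1 and 2 with 1 array left out. In the difference of the resistant changes the count was 0 in the fit of the compared groups alone and between 0 and 1 with 1 array left out. With 4 arrays left out the count was 1, in place of 0, in TC71 resistant minus parental, TC71 resistant minus 72 h and parental TC32 minus TC71, each time CYP26B1. Quantile normalisation gave 1 in TC71 resistant minus 72 h. Leaving out 1 array gave 0 to 1 there and 1 to 2 in TC32 resistant minus 72 h. The sign turned for CYP26B1 at 72 h in TC32 (0.02 without parental replicate 3, of a range from -0.17 to 0.02 with 1 array left out), for ALDH1A1 in TC32 clones (0.20 with 4 arrays left out) and for ALDH1A1 in TC71 clones (-0.05 without parental replicate 1 and -0.48 without clone C3, of a range from -0.48 to 0.69 with 1 array left out), none of which passed. The cause of these shifts was not tested. With the replicate block, 0 of the 8 genes passed at 72 h in TC32, in TC71 or in their difference, and CYP26B1 changed by -0.08, -0.23 and 0.15. Of the 115 list genes, 9 passed with the block at 72 h in TC32, against 3 without it; MEIS2 and DHRS2 were among the 9, MED1 and CYP2C8 were not. Of the lists, 4 genes passed in TC32 clones with 4 arrays left out and 1 in the fit of the compared groups alone, against 7, while TC71 clones gave 4 and 0, against 3. Over all genes these fits gave 1243 and 68, against 805, in TC32 clones. In TC71 clones they gave 269 and 0, against 139. RARA has no probe set outside the _s_at and _x_at classes, genes with only flat probe sets drop under the SD filter, and no filter on mean level exists for relative values.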
